A study of Mus musculus with 18 samples.

Results

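The kinesins are motor proteins that walk along microtubules or take them apart, and the genes described here are the members of that family measured in tumours of the TRAMP mouse and in normal mouse prostate. Members were the genes named alone by a probe set whose symbol is Kif or Kifc followed by a number, which gave 40 genes of 18193, read by 103 probe sets. One further probe set, which names Kif27 together with another gene, was left out.

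Kinesins use ATP to move along microtubules, and different members serve different journeys. A set of them builds the mitotic spindle, moves chromosomes and completes cytokinesis, and these genes are switched on in dividing cells. Others carry vesicles, mitochondria and mRNA along axons and through most cell types, and a few work in cilia and centrioles.

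The series compared 9 TRAMP tumours with 9 normal prostates, 1 Affymetrix array each. TRAMP mice carry viral T antigen oncogenes under a probasin promoter, which is active in prostate epithelium. The normal samples were ventral and dorsolateral lobes. Strain, age, the lobe of each tumour and any treatment are not given in the labels used here, and neither is whether each sample is another animal, so the spread behind each p-value is that of the samples at hand and may be technical. The tissue was used whole, and in such bulk samples fewer cells of a type and less RNA per cell cannot be told apart.

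Values are log2(signal + 16), where signal is the deposited intensity of a probe set, so a dim gene's change is understated by the difference. Where 3 values are given for a group, they are its lowest, median and highest array. Levels of different probe sets are not comparable. A gene was called higher or lower in tumours at an adjusted p under 0.05 in limma over 12793 genes that passed a filter on low values, and the number of arrays limits the precision. Dim means below the array's 40th percentile.

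Some arrays differed from their labels' tissue. In normal prostate 9, Pbsn (probasin) was 4.18 and Hoxb13, a prostate homeobox gene, was 4.50, while Svs4, a seminal vesicle secretory gene, was 12.50. The mean of 6 seminal vesicle genes was 15.08, 15.57 and 14.98 in tumours 3, 5 and 7 and 10.83 and 10.85 in tumours 6 and 8, against 12.09 in normal prostate 9 and at most 7.85 in the other normals. Krt8, a luminal keratin, was 9.36 and 7.72 in tumours 1 and 9 and at least 13.65 in the other tumours, against at least 13.15 in the normals. Adipocyte genes were lower in tumours in 4 of 4 tested (12.7% of all genes tested were lower) and leukocyte genes higher in 3 of 4 (11.3% were higher). Cd3e, a leukocyte gene of T cells that was under the filter, went the other way. It was 5.05 to 6.67 in tumours, against 5.82 to 7.64 in normals. Some of these adipocyte genes were below the 40th percentile on most tumours and so passed the filter through the normals. The mean of 6 skeletal muscle genes was at most 8.17 in tumours, against 13.30 in normal prostate 1 and at most 8.68 in the other normals. The mean of 4 uroplakin genes of urothelium was highest in tumour 4, at 13.67, and in normals 3 and 5, at 13.85 and 12.15. The part of these tissues in the kinesin values was not tested. Results are given below without the arrays high in seminal vesicle genes where a call changed.

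The promoters of the mitotic motors with the largest absolute limma t among those that passed the filter are shown because genes of mitosis share a short element there, the cell cycle homology region (CHR), often with a CCAAT box upstream. The promoter of Kif1b, the called motor with the largest fall, is shown beside them. The sequences are from RefSeq on GRCm38.p6 and run 5′ to 3′ on the gene's strand, from 160 bases before the transcript start to 20 bases from the start on. Capitals mark CHR letters (TTTGAA or TTCGAA) and the CCAAT box, either of them on either strand, so TTCAAA and ATTGG are their reverse forms.
Kif22, chr7:127042401-127042580, minus strand: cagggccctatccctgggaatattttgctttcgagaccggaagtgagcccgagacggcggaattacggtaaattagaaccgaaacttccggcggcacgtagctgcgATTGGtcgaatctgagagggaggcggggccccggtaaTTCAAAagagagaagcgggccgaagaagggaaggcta
Kif11, chr19:37376222-37376401, plus strand: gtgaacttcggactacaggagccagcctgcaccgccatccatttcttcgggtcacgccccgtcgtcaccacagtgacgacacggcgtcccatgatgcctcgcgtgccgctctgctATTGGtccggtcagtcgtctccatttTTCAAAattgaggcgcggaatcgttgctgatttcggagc
Kif23, chr9:61946780-61946959, minus strand: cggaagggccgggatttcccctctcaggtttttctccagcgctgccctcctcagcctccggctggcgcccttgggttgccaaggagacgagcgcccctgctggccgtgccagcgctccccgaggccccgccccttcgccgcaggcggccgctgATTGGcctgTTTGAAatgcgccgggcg
Kif1b, chr4:149307714-149307893, minus strand: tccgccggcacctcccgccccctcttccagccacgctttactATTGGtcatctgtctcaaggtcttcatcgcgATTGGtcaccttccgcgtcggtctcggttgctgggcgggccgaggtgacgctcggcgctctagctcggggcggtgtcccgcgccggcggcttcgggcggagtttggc

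Each of the mitotic promoters holds 1 CHR and 1 CCAAT box in the stretch printed. Counting the start base as 0, the CHR began at -17 in Kif22, -19 in Kif11 and 2 in Kif23, and the CCAAT box lay upstream of it, at -54, -45 and -7. The Kif1b promoter holds CCAAT boxes but no CHR letters.

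Over the 300-base windows that RefSeq gives, from 250 bases before the start to 50 from the start on, CHR letters were present in 10 of the 11 mitotic kinesin genes with a window. Among 27025 genes, 21.7% had them. A CHR together with a CCAAT box was present in 7 of the 11, against 8.61% of all genes, and a CCAAT box alone or with it in 7 of the 11, against 41.1%. A CHR that began between 25 bases before and 20 bases after the start, a range chosen after the matches were seen, was present in 8 of the 11, against 3.14% of all genes. Among the motors of other roles, CHR letters were present in 1 of 5 neuronal, 0 of 7 transport, 2 of 5 cilium and centriole and 1 of 4 other genes with a window. The last is Kif26b, with a CHR at -9 and a CCAAT box at -73, the single motor outside the mitotic group with a CHR in the range near the start. The CHR of Kif24, a cilium and centriole motor, began at -26, just outside that range, so this depends on where the range was set. E2F letters (TTTCCCGC, TTTGGCGC, TTTCGCGC or TTTGCCGC, both strands) were in Kif15 and Kif18a alone among the mitotic genes, 2 of 11, against 2.6% of all genes. These matches describe letters in a window and no binding was measured.

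**Figure D1:**
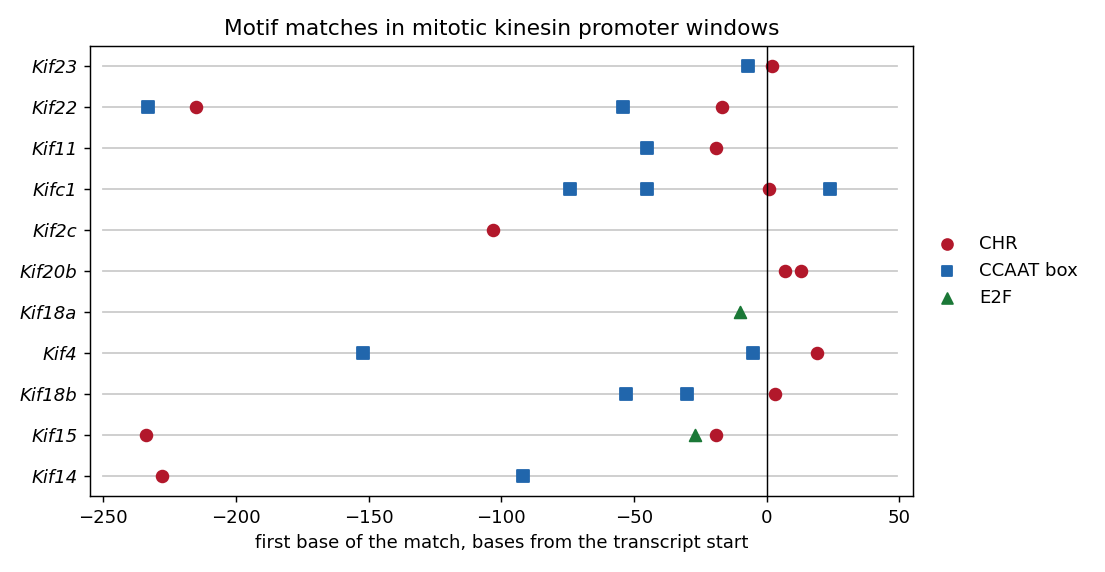
Positions of CHR, CCAAT box and E2F letters in the promoter windows of the 11 mitotic kinesin genes that have one, as the first base of each match in bases from the transcript start (x axis). In 8 of the 11 a CHR lies between 25 bases before and 20 bases after the start.

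Of the 5 role groups, the mitotic motors had the largest median difference between tumours and normals. Without the filter, 10 of all 12 mitotic kinesins were higher in tumours, where 7.89% of 18193 genes were higher. The median log2 difference of the 12 was 2.48, against 0.32 for the neuronal motors and less for the others. Every one of the 9 tumours had a mean over the 12 genes above that of every normal prostate, from 7.46 in tumour 7 to 10.17 in tumour 9, against 6.34 to 6.79 in the normals. With the filter, 6 of the 12 were tested and all 6 were higher (11.3% of genes were), and 2 of these, Kif11 and Kif23, were dim on 8 of 9 normals and so passed through the tumours.

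Kif22, a motor that pushes chromosome arms away from the pole, had a lowest, median and highest value of 10.39, 12.48 and 13.76 in tumours, against 8.07, 8.73 and 9.21 in normal prostates. Every tumour lay above every normal. The mean was 12.34 ± 1.12 in tumours and 8.75 ± 0.447 in normals (SD, n = 9 each), a log2 fold change of 3.60 ± 0.379 SE (limma adjusted p = 1.99e-05). This probe set can match several transcripts and was the single one of 3 for Kif22 that passed the filter, so Kif22 has no value without such probe sets. The other 2 differed by 1.86 and 3.85 in the same direction, without a test.

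Kif11 (Eg5), which slides antiparallel microtubules apart to form a bipolar spindle, had a lowest, median and highest value of 7.84, 9.66 and 11.54 in tumours, against 5.71, 6.55 and 7.12 in normals. Again every tumour lay above every normal, which held for 2 of the 28 kinesins that passed the filter, Kif11 and Kif22, and for 1.45% of all genes tested. No kinesin had every tumour below every normal, as 0.930% of genes had. This was a log2 fold change of 3.34 ± 0.428 SE (limma adjusted p = 6.65e-05), or 2.75 with dim values raised to the 40th percentile. All 3 probe sets of Kif11 were called higher, with log2 fold changes of 3.34, 2.38 and 0.90, and their mean gave 2.20 (limma adjusted p = 0.00034). Of all probe sets that passed the filter, 10.1% were higher and 9.48% lower.

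Kif23, a motor of the central spindle in cytokinesis, had 7.55, 9.50 and 11.19 in tumours, against 4.53, 5.36 and 8.13 in normals, as lowest, median and highest. The groups overlapped through normal prostate 3, whose 8.13 was above the next normal, 6.85, and above tumours 3, 5 and 7. The log2 fold change was 3.69 ± 0.564 SE (limma adjusted p = 0.000248), and 2.12 with dim values raised. The probe set used was the single one of 3 for Kif23 that passed the filter. The smallest difference among the 3 was 1.03, in the same direction, without a test.

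Kif2c, which depolymerises microtubules at kinetochores, had 8.06, 9.88 and 12.23 in tumours, against 5.95, 7.58 and 8.51 in normals, as lowest, median and highest. Its log2 fold change was 2.65 ± 0.527 SE (limma adjusted p = 0.00171). This probe set can match several transcripts. Without such probe sets the difference was 0.52 and not called (limma adjusted p = 0.0661), and of the 4 Kif2c probe sets 2 were called higher and 1 had the opposite sign, with a difference of -0.15.

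Kif4, a chromosome-bound motor of the spindle midzone, had 7.50, 9.43 and 10.43 in tumours, against 7.17, 7.30 and 7.91 in normals, as lowest, median and highest. That is a log2 fold change of 1.68 ± 0.336 SE (limma adjusted p = 0.00178). Kif18b, which destabilises astral microtubules, had 8.52, 9.36 and 10.45 in tumours, against 7.92, 8.35 and 8.54 in normals, as lowest, median and highest, a log2 fold change of 1.13 ± 0.24 SE (limma adjusted p = 0.00277). Both were highest in tumour 9, and each overlapped the normals through its lowest tumours, tumour 7 for Kif4 and tumour 4 for Kif18b.

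**Figure D2:**
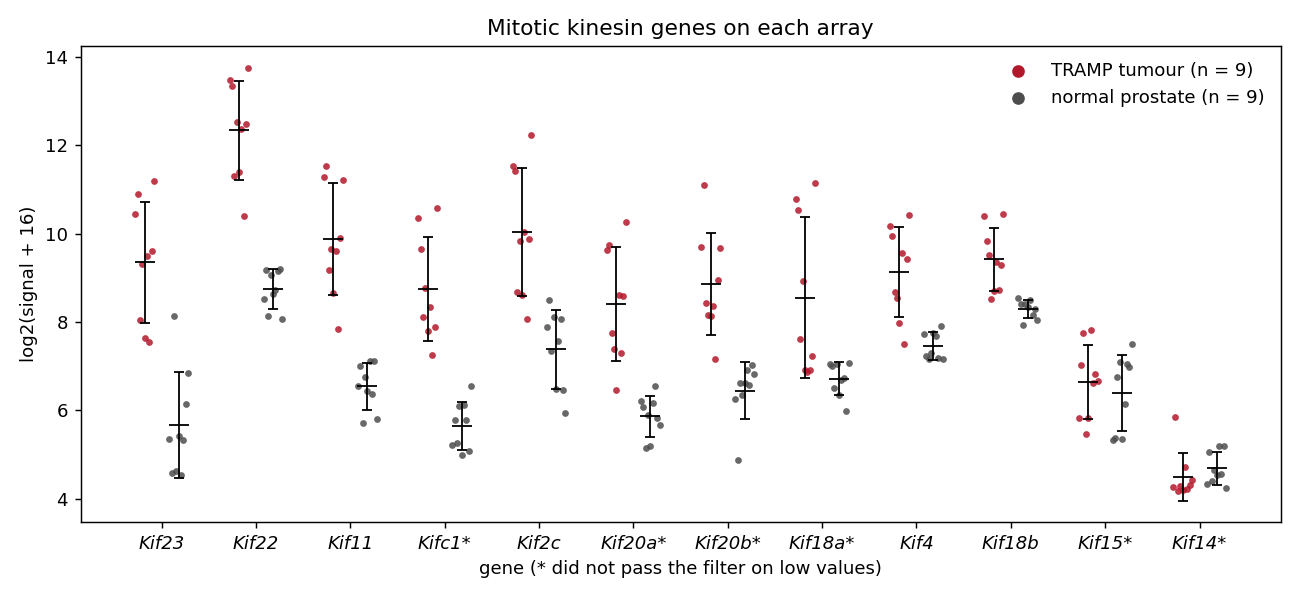
Log2(signal + 16) of mitotic kinesin genes on each array, TRAMP tumours left of normal prostates, with 1 point per array and bars for the mean ± SD (n = 9 each). Tumours 1, 2 and 9 hold the top 3 values for all 6 genes that passed the filter.

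The other 6 mitotic motors did not pass the filter, so their values come from limma over all 18193 genes. They were dim on 8 or 9 of the 9 normal arrays, and 4 of the 6 were called higher.

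Kifc1, the minus-end motor that gathers spindle poles, had 7.26, 8.35 and 10.59 in tumours, against 4.99, 5.78 and 6.55 in normals, as lowest, median and highest. Every tumour lay above every normal, by at least 3.10-fold between the group means (limma adjusted p = 0.000111). Its probe set can match several transcripts, and the near-identical Kifc5b lies on the same chromosome, so the identity of the signal is uncertain.

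Kif20a, a motor of the cleavage furrow, had 6.47, 8.59 and 10.26 in tumours, against 5.15, 5.91 and 6.56 in normals, as lowest, median and highest. Tumours were at least 2.45-fold higher (limma adjusted p = 0.000692), and the groups overlapped through tumour 5. Kif20b, also a cytokinesis motor, had 7.17, 8.44 and 11.10 in tumours, against 4.87, 6.61 and 7.02 in normals, was at least 3.33-fold higher (limma adjusted p = 0.000826), and did not overlap.

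Kif18a, which limits chromosome movement at the metaphase plate, was uneven among tumours. It was 10.78, 10.54 and 11.16 in tumours 1, 2 and 9 and 8.94 in tumour 4, and from 6.86 to 7.62 in the other 5, against 6.0 to 7.07 in the normals. It was called higher, at least 2.70-fold (limma adjusted p = 0.0363), but not when any 1 of tumours 1, 2, 4 and 9 or of normals 1 to 8 was left out, nor with quantile normalization (limma adjusted p = 0.0528) or the actin covariate described below (limma adjusted p = 0.133).

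Kif15 and Kif14 were not called. Kif15, a spindle motor that can stand in for Kif11, had 5.46, 6.66 and 7.82 in tumours, against 5.32, 6.75 and 7.51 in normals, as lowest, median and highest (difference 0.25, limma adjusted p = 0.702). Kif14, a cytokinesis motor, was dim on all 18 arrays (difference -0.19, limma adjusted p = 0.597), which allows no statement on its level.

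Tumours ranked alike for the mitotic motors. Tumours 1, 2 and 9 held the top 3 values for all 6 tested genes, tumour 9 the highest for 5 of them and tumour 7 the lowest for 5. Mki67, a marker of dividing cells, was also highest in those 3 tumours and lowest in tumour 7, with 13.19, 13.27 and 13.67 in tumours 1, 2 and 9 and 9.74 in tumour 7, against 5.19 to 9.01 in normals (log2 fold change 4.37 ± 0.596 SE, limma adjusted p = 0.000104). Tumours 1 and 9 were also those with low Krt8. At the other end, tumours 5 and 7 were among the lowest 3 tumours for all 6 tested genes, tumour 3 for 4 of them and tumour 4 for 2. Tumours 3, 5 and 7 were also those with the highest means of seminal vesicle genes, at 15.08, 15.57 and 14.98. Hoxb13 was lower in tumours 3, 5 and 7 than on any other array. The part of tissue content in this order was not tested.

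Of the genes that work with mitotic motors, 13 of 15 on the array were higher and none lower in tumours (11.3% and 12.7% of genes). Their median log2 fold change was 2.32, against -0.01 over all genes tested. Some of them, Cenpe included, were dim on most normals and so passed the filter through the tumours. Prc1, the midzone bundler that Kif4 carries, had a log2 fold change of 2.89 ± 0.307 SE (limma adjusted p = 1.99e-05). Cdk1, the mitotic kinase, had 3.42 ± 0.504 SE (limma adjusted p = 0.000199). Cep55, an abscission protein, had 3.11 ± 0.465 SE, and Cdca8, a subunit of the chromosomal passenger complex, had 2.75 ± 0.419 SE (limma adjusted p = 0.000214 and 0.000239). Cenpe, a kinetochore kinesin whose symbol lies outside the Kif rule, had 2.32 ± 0.432 SE (limma adjusted p = 0.00108). Tpx2, which activates Aurora A on the spindle, was not called (-0.47 ± 0.183 SE, limma adjusted p = 0.0661), nor was Numa1, which focuses spindle poles (0.21 ± 0.104 SE, limma adjusted p = 0.142).

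For the 6 tested mitotic motors, the differences had the same sign in both sets of arrays told apart by their spike controls, RNA added before labelling, which were bright on 5 tumours and 6 normals and dim on 4 tumours and 3 normals. The log2 difference on bright and dim arrays was 3.70 and 3.44 for Kif22, 3.47 and 3.21 for Kif11 and 3.83 and 3.35 for Kif23. Kif15, under the filter and not called, was 0.38 on bright and -0.20 on dim arrays. Limma called 0 genes of any kind on the dim arrays alone, where 1639 genes had an unadjusted p under 0.05, among them all 6 mitotic motors tested, higher in tumours.

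Over all 40 kinesins without the filter, 13 were higher and 1 lower in tumours (7.89% and 8.54% of all genes). With the filter, 28 were tested, of which 11 were higher, 2 lower and 15 not called, where 11.3% of genes were higher and 12.7% lower. The median log2 fold change of the 28 was 0.27. The 12 genes under the filter were 6 mitotic, 1 neuronal, 1 cilium and 4 other motors.

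**Figure D3:**
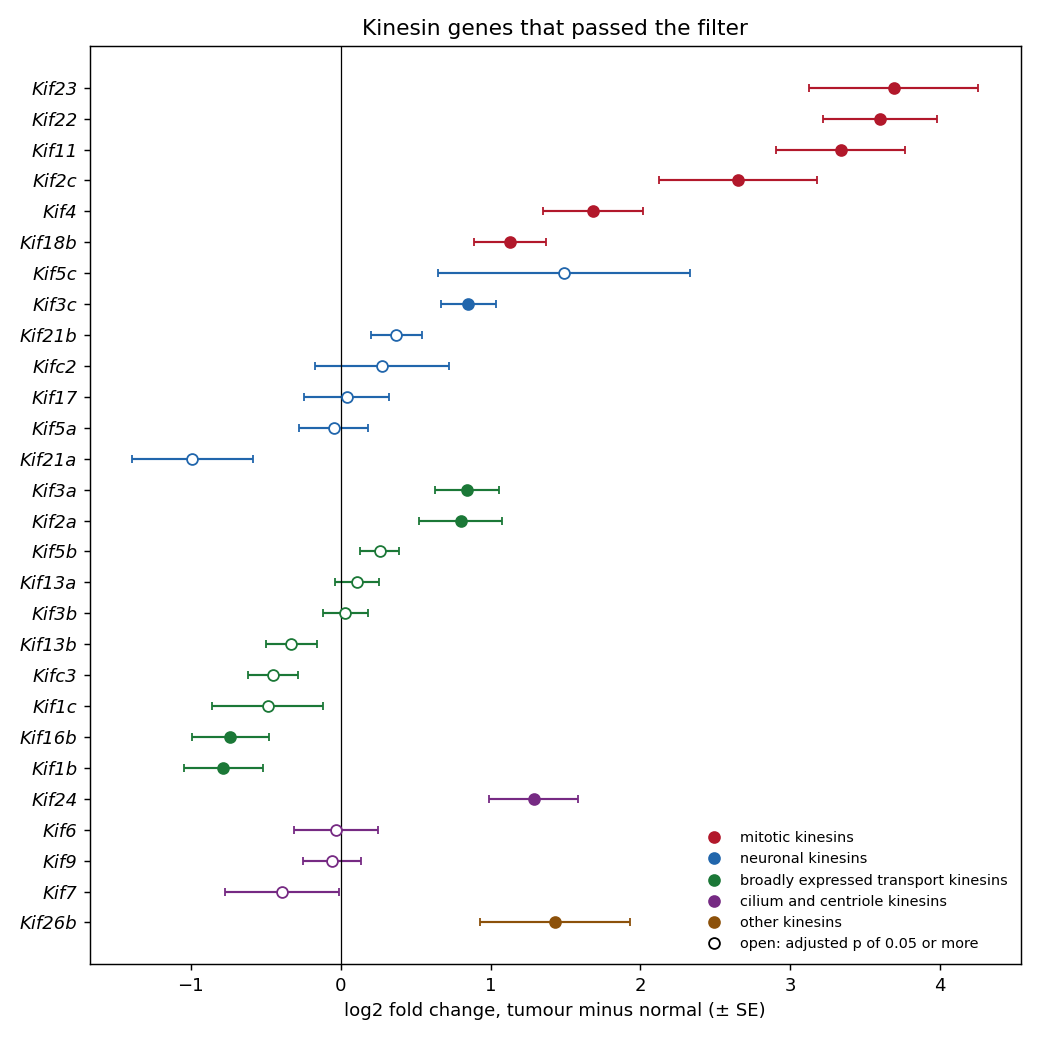
Log2 fold change, TRAMP tumours minus normal prostates, with SE, for the 28 kinesin genes that passed the filter, coloured by role, filled where the limma adjusted p was under 0.05. The largest differences, from 1.68 to 3.69, are those of the mitotic motors Kif4, Kif2c, Kif11, Kif22 and Kif23.

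**Figure D4:**
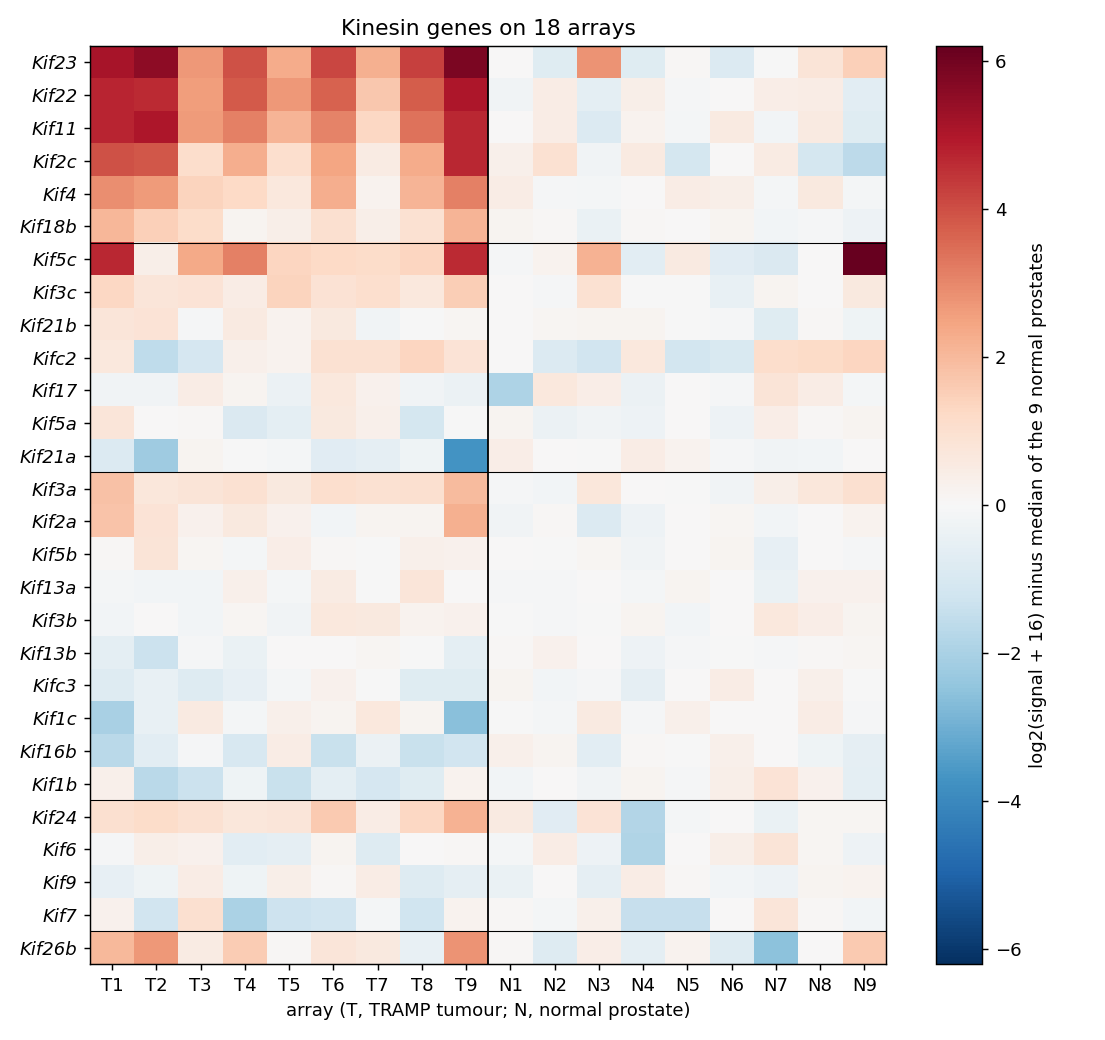
Log2(signal + 16) of the 28 kinesin genes on the 18 arrays, TRAMP tumours left of normal prostates, as the difference from the median of the normals for that gene. Normal prostate 9 stands out for Kif5c, at 13.13, and tumours 1, 2 and 9 for the mitotic motors.

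Among motors known mainly from neurons, 1 of 7 tested was higher and none lower (11.3% and 12.7% of genes), and Kif1a was under the filter. Kif3c, a heterotrimeric kinesin-2 subunit found in axons, was higher in tumours, with a lowest, median and highest value of 9.22, 9.67 and 10.32 in tumours, against 8.33, 8.78 and 9.73 in normals. Its log2 fold change was 0.85 ± 0.186 SE (limma adjusted p = 0.00324), and the groups overlapped.

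Kif5c, a neuronal heavy chain of conventional kinesin, had the largest SD of the neuronal motors in both groups, 1.58 in tumours and 2.22 in normals. It had 7.33, 8.31 and 11.66 in tumours, against 6.08, 6.98 and 13.13 in normals, as lowest, median and highest, and was not called (log2 fold change 1.49 ± 0.84 SE, limma adjusted p = 0.207). Among tumours it was high in tumours 1 and 9, at 11.66 and 11.60, and in tumour 4 at 10.11. Without normal prostate 9, whose value was 13.13 against at most 9.13 in the others, it was higher in tumours by 2.16 (limma adjusted p = 0.0128). With tumours 3, 5 and 7 also left out it was called higher by 2.49 (limma adjusted p = 0.0138). With tumours 6 and 8 left out as well it was called higher by 3.12 (limma adjusted p = 0.00647). The probe set used was the single one of 4 for Kif5c that passed the filter. Another differed by -0.56 over all arrays, without a test. Chga, a neuroendocrine granule gene, was 11.50 and 12.24 in tumours 1 and 9, against 6.67 in normal prostate 9. Some other genes of the neuroendocrine and neuronal list were high in normal prostate 9. Ncam1, an adhesion molecule, was 11.32 there, against at most 8.38 in the other normals, and Mapt, which encodes tau, was 9.44. Insm1 and Map2 of the same list were lowest there among the normals, at 4.70 and 7.45. The mean of 16 neuroendocrine and neuronal genes was 11.17, 9.78 and 11.21 in tumours 1, 4 and 9 and 6.17 to 7.31 in the other 6, against 6.31 to 7.23 in the normals, the highest being normal prostate 9. The part of such cells in the Kif5c values was not tested.

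Kif21a, an axonal motor that also limits microtubule growth at the cell cortex, had 5.61, 8.77 and 9.51 in tumours, against 9.10, 9.32 and 9.80 in normals, as lowest, median and highest. The low values were tumour 9, at 5.61, and tumour 2, at 7.10. The log2 fold change was -0.99 ± 0.401 SE and was not called (limma adjusted p = 0.0798), but it was called at -1.37 when normal prostate 9 and tumours 3, 5 and 7 were left out (limma adjusted p = 0.0345). With tumours 6 and 8 left out as well it was called at -1.77 (limma adjusted p = 0.0154).

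The remaining neuronal motors were not called. Kif21b, a dendritic motor, had 8.33, 8.77 and 9.40 in tumours, against 7.81, 8.56 and 8.74 in normals (log2 fold change 0.37 ± 0.169 SE, limma adjusted p = 0.117), but was called at 0.51 without normal prostate 9 and tumours 3, 5 and 7 (limma adjusted p = 0.0447). With tumours 6 and 8 left out as well, Kif21b was called at 0.60 (limma adjusted p = 0.0301). Kifc2, a minus-end motor of neurons, had 5.12, 7.35 and 7.99 in tumours, against 5.47, 6.68 and 8.02 in normals. Kif17, which carries receptors into dendrites, had 7.71, 7.89 and 8.73 in tumours, against 6.18, 8.09 and 8.88 in normals. These 2 differed by 0.28 ± 0.448 SE and 0.04 ± 0.284 SE (limma adjusted p = 0.689 and 0.935). Kif5a, another conventional heavy chain, had 5.98, 7.10 and 7.85 in tumours, against 6.72, 7.09 and 7.52 in normals, with a difference of -0.05 ± 0.23 SE (limma adjusted p = 0.907). Another Kif5a probe set, under the filter, differed by 1.25, with tumours up to 10.99, against at most 7.61 in normals, and was not called either (limma adjusted p = 0.206 over all genes). Kif1a, which carries synaptic vesicle precursors, was dim on 4 tumours and 7 normals, with 5.54, 7.20 and 7.86 in tumours, against 5.30, 6.74 and 7.83 in normals (difference 0.23, limma adjusted p = 0.746 over all genes).

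Of the broadly expressed motors, which carry cargo except for Kif2a, 2 of 10 were higher and 2 lower in tumours (11.3% and 12.7% of genes). The median log2 fold change of the 10 was -0.15. Kif3a, which with Kif3b drives transport into cilia, was higher, at 8.84, 9.19 and 10.18 in tumours, against 8.0, 8.23 and 9.22 in normals, as lowest, median and highest. Its log2 fold change was 0.84 ± 0.213 SE (limma adjusted p = 0.00817), and all 4 of its probe sets were called higher. Its partner Kif3b was not called (0.03 ± 0.15 SE, limma adjusted p = 0.906). The ratio of actin probe sets at the 3′ and 5′ ends, which grows as RNA degrades, averaged 1.12 ± 0.506 in tumours and 1.71 ± 0.692 in normals (log2, SD, n = 9 each). When the fit held this ratio as a covariate, Kif3a differed by 0.65 and was not called (limma adjusted p = 0.0643).

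Kif2a, which trims microtubules in interphase and at spindle poles, was higher, at 9.08, 9.53 and 11.45 in tumours, against 8.42, 9.25 and 9.46 in normals, as lowest, median and highest. The high values were tumours 1 and 9, at 11.02 and 11.45. Kif2a had a log2 fold change of 0.80 ± 0.275 SE (limma adjusted p = 0.0414), and the call was lost when any 1 of tumours 1, 2, 4 and 9 or normals 1 to 8 was left out. It was also lost without the filter, with quantile normalization, 75th percentile centring or array weights and with the mean of probe sets, at limma adjusted p = 0.0551, 0.0686, 0.068, 0.0629 and 0.0541.

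Kif1b, which carries mitochondria and synaptic vesicle precursors, was lower, at 9.50, 10.42 and 11.46 in tumours, against 10.53, 11.15 and 12.02 in normals, as lowest, median and highest. Tumours 1, 4, 6 and 9 lay above the lowest normal, with tumours 1 and 9 highest at 11.46 and 11.35. The log2 fold change was -0.78 ± 0.262 SE (limma adjusted p = 0.0364), but 1 of 7 probe sets was called and 1 had the opposite sign. Without normal prostate 9 and tumours 3, 5 and 7 it was -0.61 and not called (limma adjusted p = 0.111). With tumours 6 and 8 left out as well it was -0.50 and not called (limma adjusted p = 0.251). The call was also lost without any 1 of tumours 2, 3, 5, 7 and 8 and normals 2, 4, 6, 7 and 8.

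Kif16b, which moves early endosomes, was lower, at 8.78, 9.49 and 10.91 in tumours, against 9.80, 10.47 and 10.79 in normals, as lowest, median and highest. Kif16b had a log2 fold change of -0.74 ± 0.255 SE (limma adjusted p = 0.0425), and 2 of 3 probe sets were called lower. Tumour 5, at 10.91, lay above every normal. The call was lost when any 1 of tumours 1, 2, 4, 6, 8 and 9 or normals 1, 2, 4, 5, 6, 7 and 8 was left out.

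Kif1c, which carries vesicles and integrins, was not called (-0.49 ± 0.372 SE, limma adjusted p = 0.358). It was low in tumours 1 and 9, at 9.27 and 8.70, and from 10.85 to 11.97 in the other 7, against 11.19 to 11.87 in normals. Those 2 tumours were also the ones with low Krt8 and high Kif5c and Kif2a, as measured on the same arrays. Kif5b, the conventional heavy chain of most cell types, was not called (0.26 ± 0.131 SE, limma adjusted p = 0.157), although 3 of its 6 probe sets were called higher. Kif13a, Kif13b and Kifc3 differed by 0.11, -0.33 and -0.45 (limma adjusted p = 0.616, 0.164 and 0.0569). Kifc3, a minus-end motor at cell junctions, was called lower when any 1 of tumours 5, 6 and 7 or normal 4 was left out, with adjusted p-values down to 0.0189. Quantile normalization, 75th percentile centring, a 60th percentile filter and the spike class as a block also called it lower (limma adjusted p = 0.0231, 0.023, 0.0496 and 0.0455). Of 36 settings, 9 called Kifc3. Without normal prostate 9 and tumours 3, 5, 6, 7 and 8, Kif1c was -1.44, Kif13b -0.73 and Kifc3 -0.64, all called lower (limma adjusted p = 0.0117, 0.00607 and 0.0161). In that fit 2664 of all 12793 genes were called lower, against 1623 with all arrays.

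**Figure D5:**
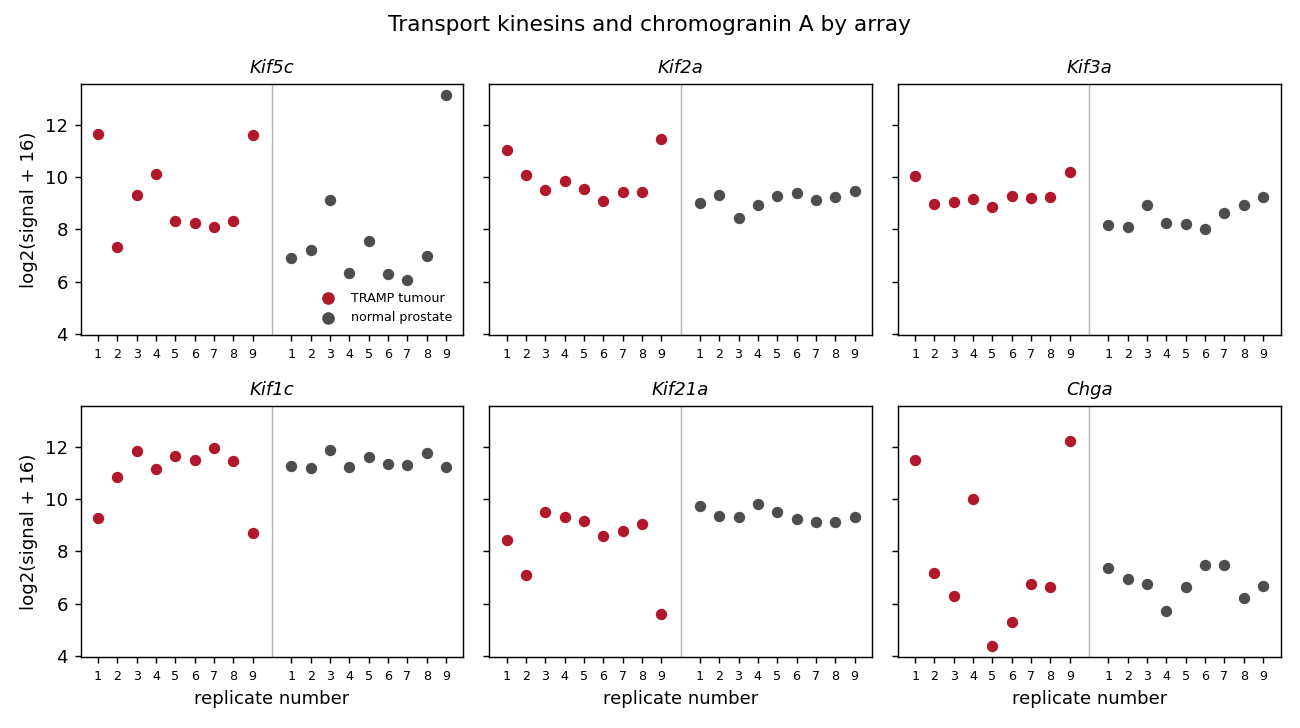
Log2(signal + 16) of Kif5c, Kif2a, Kif3a, Kif1c, Kif21a and the neuroendocrine gene Chga by replicate number (x axis), TRAMP tumours left of normal prostates, 1 point per array. Tumours 1 and 9 are high for Kif5c, Kif2a, Kif3a and Chga and low for Kif1c, and normal prostate 9 is high for Kif5c at 13.13.

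Among kinesin adaptors and light chains, 3 of 12 were higher and none lower in tumours (11.3% and 12.7% of genes). Klc1, a light chain that links the heavy chains to cargo, had a log2 fold change of 0.49 ± 0.143 SE, Trak2, a mitochondrial adaptor, 0.55 ± 0.182 SE and Mapk8ip1, a JNK scaffold that binds light chains, 0.86 ± 0.29 SE (limma adjusted p = 0.0182, 0.0359 and 0.0386). Kifap3, the accessory subunit of Kif3a with Kif3b, was not called (0.11, limma adjusted p = 0.632).

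Of cilium and centriole motors, Kif24, which restrains cilium growth at the mother centriole, was higher, at 7.47, 8.01 and 9.14 in tumours, against 5.16, 7.0 and 7.85 in normals, as lowest, median and highest. The probe set used was dim on 7 normals and so passed the filter through the tumours. It was the single one of 3 for Kif24 that passed, and another differed by -0.33, without a test. The log2 fold change was 1.29 ± 0.298 SE (limma adjusted p = 0.00475), or 0.87 with dim values raised, and Kif24 also holds CHR letters, beginning at -26. On the arrays with bright spike controls alone it was 1.12 and not called (limma adjusted p = 0.0765). Kif7, which acts in Hedgehog signalling at the cilium tip, differed by -0.39, Kif6 by -0.03 and Kif9 by -0.06, none of them called (limma adjusted p = 0.484, 0.949 and 0.857).

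Kif26b, which binds microtubules but is thought to lack motor activity, was higher, at 7.16, 8.35 and 10.39 in tumours, against 5.06, 7.60 and 9.23 in normals, as lowest, median and highest. The high values were tumours 9, 2 and 1, at 10.39, 10.27 and 9.59. The log2 fold change was 1.43 ± 0.501 SE (limma adjusted p = 0.045), and the call was lost when any 1 of tumours 1, 2, 4, 6 and 9 or normals 1, 2, 4, 5, 6, 7 and 8 was left out. Kif2b, Kif28, Kif27, Kif26a and Kif12 were under the filter, and the first 3 were dim on all 18 arrays. Kif19a and Kif25 were not analysed here.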

How the data were processed

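Total RNA from 9 TRAMP tumours and 9 normal prostates (Trizol extraction, biotin label, Affymetrix protocol, per the labels) was measured on 1 array each. The submitters' processing notes name MAS5, with no version among the sources used here, and the values deposited by the authors are its linear intensities per probe set. MAS5 scales each array by 1 factor, and the 2% trimmed mean of the deposited intensities was 500 on every array. MAS5 leaves dim probe sets noisy, and no detection calls were used. Gene names are those of the platform annotation, and all 40 Entrez identifiers matched GRCm38.p6.

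Log2(signal + 16) was tested without further normalization. Probe sets above the 40th percentile of their array on at least 9 of 18 arrays were kept, and the brightest kept probe set that names 1 gene, by mean, stood for that gene. With group as the sole term, lmFit and eBayes of limma 3.58.1 (R 4.3.3) tested 12793 genes, two-sided, with Benjamini-Hochberg adjustment over all of them, after the code was tested on simulated data. A fold written as at least is the tumour mean against the 40th percentile of the normal arrays. The members and lists were chosen with earlier results of these data known, and so was the rule for naming genes: every kinesin, up to 4 genes of each partner list by absolute t, and Mki67, Cenpe, Chga, Ncam1 and Syp. Tpx2, Numa1, Kifap3, Pbsn, Hoxb13, Svs4, Krt8, Cd3e, Insm1 and Map2 were named after their values were seen. Ncam1 had a log2 fold change of 2.84 and Syp of 0.40 (limma adjusted p = 0.00147 and 0.451). Figures used matplotlib 3.10.9 in Python 3.11.15.

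Alternatives changed the pseudocount, filter, normalization, weights, test, probe set choice, blocks and arrays included. Fits without the filter for genes under it were added after seeing the data.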

Additional observations from a re-analysis of the deposited data

Results flagged for a closer look

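In 6 of 56 groups of 9 arrays, 1 per tested kinesin and group, the highest or lowest array lay farther from the nearest other than Dixon's 95% critical value allows. Chance flags about 1 in 20 groups. In tumours this was Kif13b, where tumour 2 was lowest at 8.46 and the next was 9.16. In normal prostates, Kif5c was highest in normal 9 at 13.13, with the next at 9.13. The other 4 were lowest values in normal prostates: Kif17 was 6.18 in normal 1 (next 7.70), Kif21b was 7.81 in normal 7 (next 8.28), Kif2a was 8.42 in normal 3 (next 8.94) and Kif6 was 5.42 in normal 4 (next 6.97). The flags fall on 5 different normal arrays and 1 tumour array.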

How the results depend on the processing

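All 6 tested mitotic motors stayed higher in tumours under every omission of 1 array, and the number of kinesins called higher ranged from 9 to 12, the number lower from 0 to 2, the mitotic partners higher stayed at 13 and the mitotic median ranged from 2.77 to 3.24. Against 11 kinesins higher and 2 lower, 6 mitotic motors and 13 partners higher and a mitotic median of 2.99, the counts moved as follows. Without the filter, 1 kinesin was lower and 10 mitotic motors higher. With a 60th percentile filter 6 kinesins, 3 mitotic motors and 7 partners were higher, since fewer genes were tested. The exact Wilcoxon test called 1 kinesin lower, Kif21a (adjusted p = 0.0464), and neither Kif1b nor Kif16b (adjusted p = 0.0832 each). Arrays with bright spike controls alone and the actin covariate each gave 0 lower. On the dim arrays alone no kinesin was higher or lower, 0 mitotic motors and 0 partners were called, and the median was 3.22. Without probe sets that can match several transcripts 7 partners were higher and the median was 1.68. Of the 6 mitotic motors, Kif22 then had no value and Kif2c was not called (0.52, limma adjusted p = 0.0661). Without normal prostate 9 and tumours 3, 5, 6, 7 and 8, 5 kinesins were lower, where 2664 of 12793 genes were, against 1623 with all arrays. Centring on the 75th percentile made 35.3% of all genes called the higher ones, against 47.1% in the uncentred data, with 9 kinesins higher and 3 lower. With the actin covariate Kif3a, Kif2a, Kif26b, Kif1b, Kif16b and, without the filter, Kif18a lost their calls. Kif26b also lost its call without the filter, with quantile normalization, 75th percentile centring and the exact Wilcoxon test, and Kif16b without the filter.

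The replicate block gave 0 kinesins lower and 11 higher. Same-numbered samples correlated at over 0.1 in 1 of 9 pairs (r from -0.11 to 0.31). Low correlation between tumour and normal tissue cannot decide whether the numbers pair the samples or follow a shared batch. The block removed the calls of Kif1b and Kif16b and changed no other kinesin call.

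Only uncalled differences changed sign. Kif5a was 1.25 without the filter, through another probe set, 0.056 on bright arrays and 0.040 without normal 9 and tumours 3, 5, 6, 7 and 8. Kif17 was -0.036 under quantile normalization, -0.038 under 75th percentile centring, -0.29 on dim arrays, -0.026 without normal 9 and tumours 3, 5 and 7, and -0.15 also without tumours 6 and 8. Kif3b was -0.044 under quantile normalization, -0.048 under 75th percentile centring, -0.022 with the spike class as a block, -0.051 on bright arrays and -0.052 without normal 9 and tumours 3, 5, 6, 7 and 8. Kif13a was -0.043 on bright arrays and -0.0096 with the actin covariate. Kif6 was 0.11 on bright arrays, 0.0047 with the actin covariate and 0.052 without normal 9 and tumours 3, 5 and 7. Kif9 was 0.053 on bright arrays and Kifc2 -0.18 on dim arrays. With 1 array left out, Kif17 ranged from -0.19 to 0.14, Kif3b from -0.033 to 0.099, Kif5a from -0.15 to 0.081, Kif6 from -0.26 to 0.077 and Kif9 from -0.13 to 0.029. The cause was not tested for any of these. Signal near background limits all values of genes dim in 1 group.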
